A study of Homo sapiens with 32 samples.

Results

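The 8 cannabidiol (CBD) cultures harvested at 3 h and 6 h were compared with each other, 4 per time, out of 32 samples in the series. They were chosen by the treatment and time in their names and by no measured value. All samples were SK-N-BE(2), an established human neuroblastoma line with amplified MYCN, plated in 6-well dishes and given either 20 µM CBD dissolved in ethanol or 0.1% ethanol alone (vehicle) for 3, 6, 12 or 24 h. PolyA RNA was sequenced as single reads of 50 bases. No group carries a genetic change beyond those of the line itself, and each group is 4 wells of that 1 line. The 8 vehicle samples at 3 and 6 h, which share no sample with the CBD comparison, gave the change that the same 3 h brought without CBD. Values are FPKM, fragments counted on a gene scaled for transcript length and sequencing depth. Of 22610 gene entries, 12621 had a mean of at least 1 FPKM over the series and were tested.

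CBD is a lipophilic plant cannabinoid that enters cell membranes. Several transcription programs of human cells answer particular signals, among them those named here. MTF1 reads free zinc through metal response elements and drives the metallothioneins, small cysteine-rich proteins that bind zinc and copper. SREBP factors are released when sterol in the endoplasmic reticulum falls, and raise the enzymes of cholesterol synthesis and proteins of sterol uptake. NFE2L2 (NRF2) answers oxidants and electrophiles, ATF4 the integrated stress response, HSF1 unfolded protein in the cytosol, and HIF factors low oxygen. Genes were grouped by these programs, by growth signalling and by neuroblastoma identity.

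Replicates were compared first. The median SD of a gene between samples, on the log2(FPKM + 1) scale used for every change below, was 0.0679 in CBD at 3 h, the widest of the 8 groups, and 0.0555 in CBD at 6 h, against 0.0511 and 0.0484 in vehicle at the same times. CBD 3 h replicate 1 stood apart, with a median absolute deviation of 0.0984 from the mean of its group mates. The other 7 CBD samples lay between 0.0343 and 0.0735. No 2 samples held identical values. Relative depth, read from the lowest values of rarely detected genes, was 0.948 ± 0.0659 at 3 h and 0.980 ± 0.0598 at 6 h (SD, n = 4 each; exact two-sided permutation p = 0.457; the smallest p that 4 against 4 can give is 0.0286). All 12 neuroblastoma markers (among them HAND2, DBH and MYCN) were at or above 1 FPKM at both times. Of 6 fibroblast markers, COL1A1, DCN and LUM were too, with a summed level of the 6 of 66.9 to 71.7 FPKM at 3 h and 62.1 to 66.1 at 6 h. Their part in the results was not tested. None of 5 immune or 3 endothelial markers reached 1 FPKM, KRT5 was at 0, and EPCAM was the only one of 4 epithelial markers above it. The labels do not say whether replicates were treated on separate days, so p-values measure the spread between these samples.

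From 3 to 6 h with CBD, 1385 genes changed (11.0% of those tested; limma, Benjamini-Hochberg adjusted p under 0.01), of which 767 (6.08%) were higher and 618 (4.90%) lower at 6 h. The changes were small. The median size among called genes was 0.16 on the log2 scale, 18 rises and 4 falls reached 0.5, and 8 rises and no fall reached 1. Vehicle cultures changed in 1196 genes over the same hours (9.48%; 790 or 6.26% higher and 406 or 3.22% lower). Both comparisons called 429 genes, and 407 of these moved the same way, which is 29.4% of the CBD calls and 34.0% of the vehicle calls. The change in CBD differed from the change in vehicle in 265 genes (2.10%), being more positive in 89 (0.705%) and more negative in 176 (1.39%). Of the 12621 genes, limma gave 4134 an unadjusted p under 0.05 with CBD, 4092 in vehicle and 2546 for the difference. Such counts for the gene lists below are to be set against these.

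These counts rest on a spread shared by all 32 samples. With the 8 CBD samples fitted alone, 184 genes were called (117 higher and 67 lower), and 182 of them were among the 1385. Leaving out CBD 3 h replicate 1 raised the count to 1952 (990 higher and 962 lower), and the count of differences from vehicle from 265 to 602. Quantile normalization gave 554 higher and 685 lower with CBD. In vehicle it gave 540 and 561, and median-ratio scaling 601 and 631. Genes more positive and more negative with CBD than in vehicle numbered 112 and 147 under median-ratio scaling and 89 and 110 under quantile normalization. Counts with the CBD samples alone are therefore given with the gene groups. Over all 12519 genes tested in that fit, 184 were called and 3026 had an unadjusted p under 0.05. A short list without a call there is thus near the share over all genes.

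**Figure D1:**
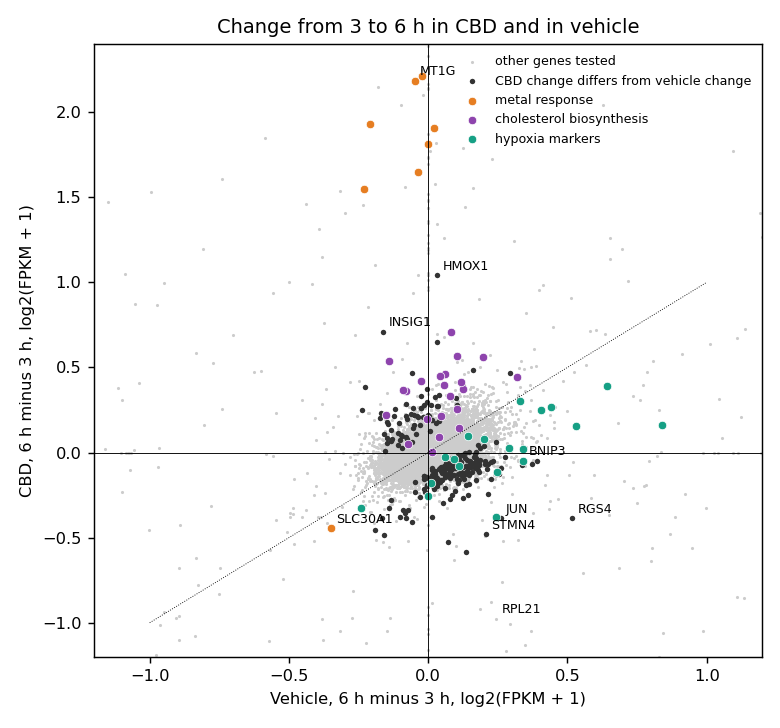
Each point is 1 of the genes tested, placed by its change from 3 to 6 h in vehicle (horizontal) and in CBD (vertical), both as differences of log2(FPKM + 1), and black points are genes whose changes differed between treatments (adjusted p under 0.01). The 7 metallothioneins lie alone at the top near 0 on the vehicle axis, all but 1 of the 22 cholesterol genes lie above the dotted line of equal change, and RGS4, JUN and STMN4 lie at lower right, while 225 genes fall outside the plotted range.

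The largest rises were those of the metallothioneins, and they are shown with the promoters that carry their metal response elements. All 7 metallothionein genes tested rose between 3 and 6 h, and they filled the first 7 places among the rises named. The filter, a mean of at least 1 FPKM over the series, included the CBD samples. Genes scarce in vehicle at these times, such as MT1G, MT1M and MT1H, could thus pass it through their levels with CBD. MT1A, MT1B, MT1L and MT3 did not pass. That all 7 genes tested rose is therefore not independent of how they were selected. The zinc exporter SLC30A1, another MTF1 target, fell, and so did the zinc importer SLC39A10. Promoter windows of 300 bases (250 before to 50 after the transcript start, RefSeq, GRCh38.p14) were found for 4 of the 8 metal response genes tested. The core of the element was searched on both strands as TGCACNC and TGCGCNC, and matches are in capitals. The windows are chr16:56608334-56608633 (plus strand) for MT2A, chr16:56669564-56669863 (plus strand) for MT1H, chr16:56682220-56682519 (plus strand) for MT1X and chr1:211579112-211579411 (minus strand) for SLC30A1.
MT2A: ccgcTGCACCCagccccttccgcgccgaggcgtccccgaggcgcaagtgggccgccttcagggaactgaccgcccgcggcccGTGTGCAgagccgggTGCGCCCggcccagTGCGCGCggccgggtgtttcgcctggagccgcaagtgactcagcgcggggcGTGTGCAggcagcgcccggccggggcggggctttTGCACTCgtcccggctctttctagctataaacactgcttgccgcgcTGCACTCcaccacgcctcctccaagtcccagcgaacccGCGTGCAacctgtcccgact
MT1H: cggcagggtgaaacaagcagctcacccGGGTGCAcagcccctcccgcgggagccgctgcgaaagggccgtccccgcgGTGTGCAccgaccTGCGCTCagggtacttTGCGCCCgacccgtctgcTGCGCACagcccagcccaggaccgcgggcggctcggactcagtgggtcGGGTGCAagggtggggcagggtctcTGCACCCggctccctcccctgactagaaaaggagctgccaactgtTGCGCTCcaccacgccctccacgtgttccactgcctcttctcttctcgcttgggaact
MT1X: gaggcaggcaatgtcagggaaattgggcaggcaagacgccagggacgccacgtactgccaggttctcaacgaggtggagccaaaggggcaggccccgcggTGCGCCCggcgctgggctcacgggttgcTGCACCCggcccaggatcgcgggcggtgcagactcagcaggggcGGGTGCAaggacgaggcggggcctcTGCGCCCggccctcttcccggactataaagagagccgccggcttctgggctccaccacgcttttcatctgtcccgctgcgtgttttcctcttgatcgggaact
SLC30A1: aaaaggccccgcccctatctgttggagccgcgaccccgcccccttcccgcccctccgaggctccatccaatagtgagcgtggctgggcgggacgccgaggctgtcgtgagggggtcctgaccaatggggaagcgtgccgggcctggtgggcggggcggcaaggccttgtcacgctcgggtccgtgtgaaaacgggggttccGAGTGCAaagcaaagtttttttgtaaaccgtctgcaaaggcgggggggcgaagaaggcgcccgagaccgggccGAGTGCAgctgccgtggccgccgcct
Matches numbered 8 in MT2A, 8 in MT1H, 4 in MT1X and 2 in SLC30A1. Of 27305 genes with a window, 33.4% held at least 1 match and 2.78% held 3 or more. The SLC30A1 window has 1 match upstream of the start and 1 downstream of it.

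MT2A (chr16:56642496-56643409 on GRCh37), the most abundant metallothionein here, was at 96.7, 132, 99.9 and 79.5 FPKM in the 4 CBD samples at 3 h and at 245, 524, 310.1 and 251 at 6 h. In vehicle it was at 10.5 to 13.3 FPKM at 3 h and 10.4 to 12 at 6 h. The CBD groups did not overlap, which the rule for the largest rises required, and both lay above every vehicle sample. The change with CBD was 1.65 ± 0.18 (SE; adjusted p = 2e-07) and differed from that in vehicle by 1.68 ± 0.25 (SE; adjusted p = 0.00011). MT1G (chr16:56700642-56701977) went from 29, 42.8, 27.9 and 22.3 FPKM to 106, 260.2, 138 and 95.8, while vehicle samples lay at or under 0.393. This was a 4.92-fold rise in the mean, or 2.18 ± 0.21 (SE; adjusted p = 2.1e-08). MT1X (chr16:56716382-56718108) rose from 67.4, 88.4, 70.3 and 49.8 to 155, 350.1, 198 and 149 FPKM (1.55, adjusted p = 8.3e-07).

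The scarcer genes of the cluster also rose. MT1E rose from 19.1 ± 7.37 to 81.2 ± 51.5 FPKM (mean ± SD of 4 samples), MT1F from 7.62 ± 1.92 to 29.9 ± 10.1, and MT1M from 2.96 ± 1.4 to 16 ± 12.7. MT1H was near the detection limit at 3 h (0.904, 0.564, 0.201 and 0.485 FPKM) and was at 4.75, 11.5, 5.48 and 4.23 at 6 h. Ratios of mean FPKM ran from 3.09 for MT1X to 12.1 for MT1H, and log2 changes from 1.55 to 2.21. In vehicle MT1M and MT1H were listed at 0 in all but 1 sample each, and limma called none of the 7 between 3 and 6 h (0 at an unadjusted p under 0.05). For each of the 7 the change with CBD exceeded that in vehicle, by 1.68 for MT2A up to 2.23 for MT1G. MT1A, MT1B, MT1L and MT3 were too scarce to test. MT1L was at 0.363 to 0.461 FPKM at 3 h and 0.684 to 1.81 at 6 h with CBD.

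Replicate 2 was the highest of the 4 at 6 h for all 7 genes, as with MT1E at 50.7, 157, 67.5 and 49.2 FPKM, and the highest at 3 h for all but MT1H. The SD of MT1G on the log2 scale was 0.643 in CBD at 6 h and 0.157 in vehicle at 6 h. With the CBD samples alone, MT1H (adjusted p = 0.0061) and MT1F (0.007) were still called, and MT1G (0.011), MT2A (0.014), MT1X (0.024), MT1E (0.037) and MT1M (0.051) were not. The CBD groups of these genes did not overlap, but that was common. Of the 12621 genes tested, 1104 were higher and 915 lower at 6 h without overlap. The genes lie side by side on chromosome 16 and resemble each other. Between 1.24% (MT1F) and 18.7% (MT1X) of the 50-base words in their annotated transcripts also occur in another gene, so the division of reads among them is uncertain. At later times means were lower than at 6 h. MT2A averaged 192 FPKM at 12 h and 28.6 at 24 h with CBD, and MT1G 97.7 and 9.04. The later means were not tested here.

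**Figure D2:**
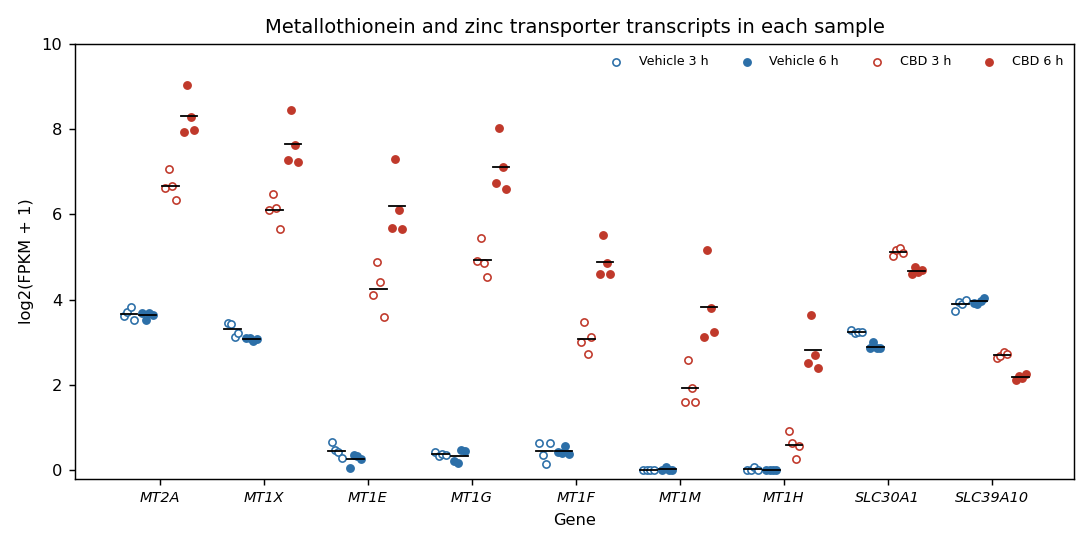
FPKM of the 7 metallothionein genes and both zinc transporters, as log2(FPKM + 1), with 1 point per sample and a black bar at the mean of log2 values. Open points are 3 h, filled points 6 h, blue vehicle and red CBD. Every metallothionein has its 4 filled red points above its 4 open red points, while SLC30A1 and SLC39A10 have theirs below.

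SLC30A1 (chr1:211744910-211752503), which carries zinc out of the cytosol, was at 31.5, 34.9, 36 and 33.4 FPKM at 3 h and 23.2, 26.3, 24.3 and 24.9 at 6 h with CBD. It fell by 0.45 ± 0.04 (SE; adjusted p = 1.5e-09). At both times CBD samples were far above vehicle, which was at 8.37 to 8.78 FPKM at 3 h and 6.25 to 6.99 at 6 h and also fell (-0.35, adjusted p = 5.6e-07). The 2 falls could not be told apart (difference -0.10 ± 0.05 (SE; adjusted p = 0.31)). SLC39A10 (chr2:196440701-196602426), a zinc importer of the plasma membrane, went from 5.16, 5.43, 5.88 and 5.67 to 3.31, 3.6, 3.49 and 3.77 FPKM with CBD (-0.52, adjusted p = 2.3e-09). Its CBD groups did not overlap, which the rule for the largest falls required. In vehicle it was at 12.3 to 14.9 and then 14 to 15.3 FPKM, and the changes differed (-0.60, adjusted p = 5.4e-07). It was the 1 member called among 11 zinc importers tested, also with the CBD samples alone, and the list had a median of -0.02.

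The genes of cholesterol synthesis rose together between 3 and 6 h with CBD. Of 22 enzymes tested, 19 rose and none fell, all 22 changes were above 0, and the median was 0.37 against 0.00 over all genes tested. In vehicle 4 rose and 2 fell, with a median of 0.05. The CBD change exceeded the vehicle change in 13 of the 22 and fell short of it in none. With the CBD samples alone, 12 of the 22 were called, and leaving out CBD 3 h replicate 1 left 19.

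HMGCS1 (chr5:43287572-43313614), the cytosolic HMG-CoA synthase, was at 73, 74.3, 76.5 and 79.9 FPKM at 3 h and 128, 118, 126 and 126 at 6 h, a change of 0.71 ± 0.04 (SE; adjusted p = 9.7e-13). Vehicle samples were at 79.3 to 81.8 FPKM and then 82.5 to 88.9. At 3 h CBD samples thus lay below or within the vehicle range, and at 6 h all 4 were above it. MSMO1, a methylsterol oxidase, rose from 74.2 ± 1.48 to 108 ± 5.18 with CBD (0.54) and fell in vehicle (-0.14, adjusted p = 0.0041). SC5D, a late desaturase, did likewise, with 0.22 in CBD and -0.15 in vehicle. Among the other large rises were MVD (0.57), HSD17B7 (0.56), DHCR7 (0.46), MVK (0.45), TM7SF2 (0.44), SQLE (0.42), LSS (0.41), CYP51A1 (0.40), FDFT1 (0.37) and IDI1 (0.37).

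The other 3 enzymes of the pathway were not called. PMVK changed by 0.01 ± 0.06 (SE; adjusted p = 0.97), LBR by 0.05 ± 0.02 (SE; adjusted p = 0.089) and GGPS1, which leads to geranylgeranyl groups and not to sterol, by 0.09 ± 0.04 (SE; adjusted p = 0.062). FDPS and TM7SF2 rose in both treatments, and no difference between their changes was called (0.03, adjusted p = 0.65 for FDPS and 0.12, adjusted p = 0.53 for TM7SF2). Calls for FDPS, LSS, TM7SF2, EBP, SC5D and DHCR7 were among those lost with the CBD samples alone (adjusted p from 0.021 to 0.075).

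Among 8 genes of sterol uptake and feedback, 3 rose, INSIG1 and STARD4 among them, and 5 were not called. INSIG1 (chr7:155089486-155101945), which holds SREBP in the endoplasmic reticulum and is itself an SREBP target, went from 42.5, 39.6, 38.2 and 40.3 to 68.8, 64.5, 69.4 and 62.5 FPKM (0.71, adjusted p = 8.2e-14). In vehicle it fell from 45.2 ± 1.56 to 40.3 ± 0.658 FPKM (-0.16, adjusted p = 0.0013), and the difference of 0.87 was the largest among the sterol genes. STARD4, a carrier of cholesterol between membranes, rose from 10.6 ± 0.903 to 17.1 ± 0.701 (0.65, adjusted p = 5.2e-10). All 3 were still called with the CBD samples alone. Transcripts of the pathway's own factors moved less and were not called, with 0.12, adjusted p = 0.025 for SREBF2, 0.08, adjusted p = 0.39 for SREBF1 and 0.03, adjusted p = 0.77 for SCAP. INSIG2 changed by 0.02 and MYLIP, which marks lipoprotein receptors for degradation, by 0.02. A strict form of the sterol regulatory element, TCACNCCAC on either strand, was in none of the 17 promoter windows found for the cholesterol list and in 1 of 7 for the uptake list (SREBF2). It was in 1.39% of all 27305.

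**Figure D3:**
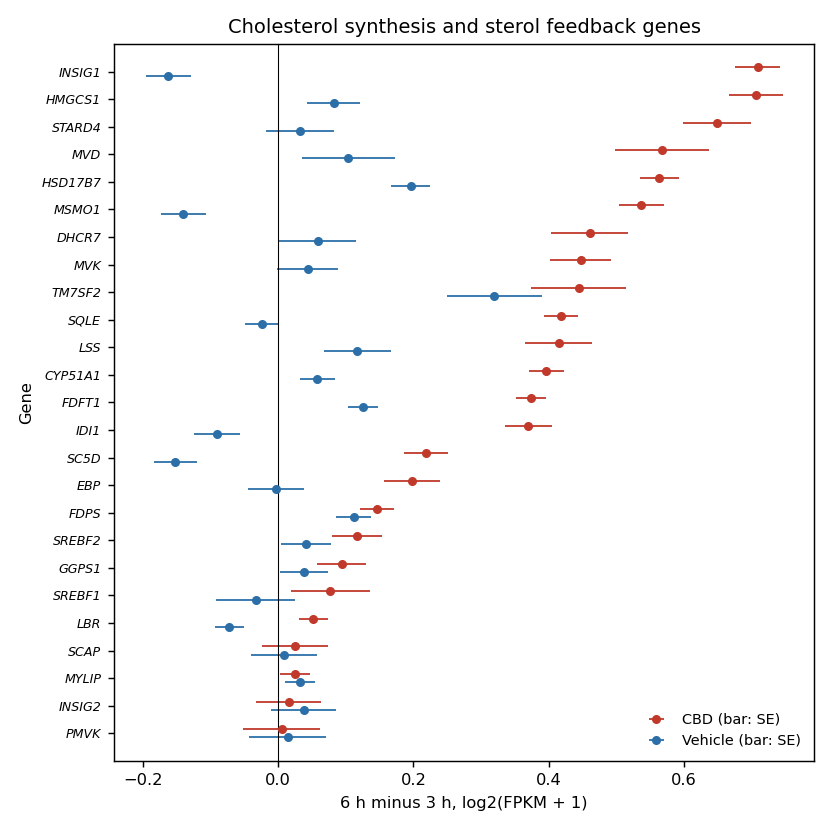
Change from 3 to 6 h of the cholesterol synthesis and sterol feedback genes named in the text, as a difference of log2(FPKM + 1), in CBD (red) and vehicle (blue), with bars of 1 SE from the model. Red points run from 0.01 (PMVK) to 0.71 (INSIG1) and none lies below 0, whereas blue points lie on both sides of 0.

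Fatty acid synthesis moved less. Of 14 genes 10 rose and none fell with CBD, with a median of 0.14, and 4 rose in vehicle, with a median of 0.07. ACSS2, which makes acetyl-CoA from acetate, rose from 4.28 ± 0.296 to 6.37 ± 0.0914 FPKM (0.48, adjusted p = 8.1e-10), and SCD, the desaturase that makes oleate, from 223 ± 11.4 to 280.4 ± 11.4 (0.33, adjusted p = 8.6e-08). These were the 2 whose change exceeded that in vehicle (by 0.32 and 0.30), and also the 2 called with the CBD samples alone. FASN rose by 0.27 in CBD and was not called in vehicle (0.12, adjusted p = 0.12), but the difference between the changes was not called (0.16, adjusted p = 0.22). ACACA rose in both, by 0.15 and 0.15. FADS1 had the weakest call (adjusted p = 0.0099), which was lost under 15 of 22 alternatives.

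Genes of the oxidant response and of heme and iron handling also moved with CBD. Of 23 NFE2L2 targets 9 rose and none fell, with a median of 0.06. In vehicle 1 rose and 1 fell. The changes differed between treatments, in favour of CBD, for 5 genes, namely HMOX1, NQO1, GCLM, SQSTM1 and SLC7A11. The difference was lost under 15 of 30 alternatives for SQSTM1 and 16 of 29 for SLC7A11, and under none for the other 3. HMOX1 (chr22:35776354-35790207), which breaks down heme, was at 1.56, 1.72, 1.57 and 1.64 FPKM at 3 h and 4.23, 4.93, 4.55 and 3.92 at 6 h, with no overlap, which the rule for the largest rises required. This 2.72-fold rise in the mean (1.04 ± 0.07 SE on the log2 scale, adjusted p = 6.1e-11) was the largest outside the metallothioneins. Vehicle samples were at 0.762 to 1.19 FPKM at 3 h and 0.816 to 1.11 at 6 h. HMOX1 and NQO1 were the 2 targets still called with the CBD samples alone.

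NQO1, a quinone reductase, rose from 8.11, 8.63, 8.63 and 8.43 to 10.3, 10.4, 10.6 and 9.95 FPKM (0.26, adjusted p = 4.5e-05). GCLM, the regulatory subunit of the enzyme that starts glutathione synthesis, rose from 8.26 ± 0.430 to 9.65 ± 0.279 FPKM with CBD (0.20, adjusted p = 2.3e-05) and fell from 7.36 ± 0.150 to 6.41 ± 0.222 in vehicle (-0.17, adjusted p = 0.00025). SQSTM1, an autophagy receptor, rose by 0.21 and ABCC1, an exporter of glutathione conjugates, by 0.19. The heavy chain of ferritin, FTH1, rose from 542 ± 13.8 to 602 ± 10.4 FPKM (0.15, adjusted p = 0.00046), and the smallest called rise of the list was that of GSR (0.07), lost under 12 of 22 alternatives.

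Within the heme and iron list, 4 of 19 genes rose and 2 fell with CBD, and limma called none in vehicle (6 at an unadjusted p under 0.05). TFRC (chr3:195739382-195809024), the transferrin receptor that brings iron in, fell from 69.99, 71.1, 72 and 73.8 to 54.2, 53, 54 and 53.6 FPKM (-0.41, adjusted p = 6.1e-11), and its change differed from that in vehicle by -0.35 (adjusted p = 2.4e-06). ALAS1, which starts heme synthesis, fell from 7.24 ± 0.331 to 6.02 ± 0.259 (-0.23, adjusted p = 3.2e-05) and was at 11.3 and 11.2 FPKM in vehicle. Later enzymes of the pathway rose slightly, CPOX by 0.13 and FECH by 0.10. With the CBD samples alone HMOX1 and TFRC were the genes called.

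ATF4 targets, which include amino acid transporters and enzymes of serine synthesis, rose more often than they fell in CBD. Of 41 tested, 7 rose and 1 fell, with a median of 0.10 against 0.00 in vehicle, where 3 rose and 2 fell. PCK2, mitochondrial phosphoenolpyruvate carboxykinase, rose most, from 26 ± 1.29 to 35 ± 1.71 FPKM (0.42, adjusted p = 3.5e-05). ASNS, asparagine synthetase, rose by 0.23, SHMT2 by 0.20, AARS by 0.22 and PHGDH by 0.13, the last a call lost under 7 of 22 alternatives. PCK2, ASNS and AARS were still called with the CBD samples alone. Both chains of the cystine transporter differed between treatments. Its light chain SLC7A11 was at 1.76, 1.69, 1.93 and 1.73 FPKM at 3 h and 2.25, 2.96, 2.56 and 2.73 at 6 h with CBD (0.38, adjusted p = 0.0056), a call lost under 8 alternatives, and averaged 1.01 and 0.715 in vehicle. Its heavy chain SLC3A2 rose from 92.8, 87.6, 87.3 and 83.1 to 102, 112, 107 and 97.1 with CBD (0.25, adjusted p = 0.0016) and fell from 72 ± 3.85 to 60.9 ± 2.73 in vehicle (-0.24, adjusted p = 0.0032). Differences between the changes were 0.61, lost under 16 of 29 alternatives, and 0.49, lost under none. PSAT1 was the third gene with a called difference (0.20, lost under 11 of 30 alternatives), and VLDLR, a lipoprotein receptor, was the 1 that fell (-0.12, adjusted p = 0.00017).

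The promoters of SLC3A2 and GCLM are shown because both genes moved in opposite directions in CBD and vehicle and hold the element of their list. Capitals mark TGATGNAA, a core of the CEBP-ATF element, in SLC3A2 (chr11:62881449-62881748 (plus strand), 1 of 3 windows listed for the gene) and TGACNNNGC, the core of the antioxidant response element, in GCLM (chr1:93909381-93909680 (minus strand)), each searched on both strands.
SLC3A2: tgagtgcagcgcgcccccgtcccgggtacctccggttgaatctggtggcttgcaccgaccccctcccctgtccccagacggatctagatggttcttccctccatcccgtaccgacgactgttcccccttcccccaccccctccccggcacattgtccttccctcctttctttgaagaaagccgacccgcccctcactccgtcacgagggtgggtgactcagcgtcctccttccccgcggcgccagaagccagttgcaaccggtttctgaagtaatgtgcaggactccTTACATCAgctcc
GCLM: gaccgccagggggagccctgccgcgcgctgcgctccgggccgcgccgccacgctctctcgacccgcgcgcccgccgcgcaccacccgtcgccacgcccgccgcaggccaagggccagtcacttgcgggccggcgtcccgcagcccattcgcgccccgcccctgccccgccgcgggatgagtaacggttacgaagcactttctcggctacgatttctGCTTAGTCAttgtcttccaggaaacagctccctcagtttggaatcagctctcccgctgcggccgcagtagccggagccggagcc
TGATGNAA was in 8 of the 25 ATF4 targets with a window, and in 4.46% of all genes with one. Of those 8, ASNS and SLC3A2 rose. The other windows of SLC3A2 held no match, and its match shown lies downstream of the transcript start. TGACNNNGC was in 5 of the 16 NFE2L2 targets with a window, of which GCLM and ME1 rose, and in 16.1% of all.

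Chaperones rose in both treatments. Of 19 heat shock genes 8 rose and none fell with CBD, with a median of 0.12, while 9 rose and 1 fell in vehicle, with a median of 0.21. No difference between the changes was called by limma (5 of 19 at an unadjusted p under 0.05, against 2546 of 12621 over all genes). HSPA1B went from 18.4 ± 0.898 to 31 ± 1.47 FPKM with CBD and from 13.9 ± 0.667 to 21.6 ± 0.749 in vehicle (0.72 and 0.60). HSPA1A rose by 0.70 and 0.63. These copies of inducible HSP70 share 73.7% of the 50-base words of HSPA1A with another gene, so their separate levels are uncertain. DNAJB1, the HSP40 partner, rose by 0.36 and 0.28, HSPA8 by 0.37 and 0.41, and BAG3 by 0.31 and 0.20.

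The unfolded protein response list also had calls in both treatments, with 10 of 21 genes higher with CBD (median 0.11), 7 higher in vehicle (median 0.08) and no difference called by limma (5 of 21 at an unadjusted p under 0.05). HSPA5, the main chaperone of the endoplasmic reticulum, rose by 0.47 with CBD and 0.52 in vehicle (difference -0.05 ± 0.06 (SE; adjusted p = 0.72)). SDF2L1 rose by 0.42 and 0.27, and PDIA4 by 0.24 and 0.26. DNAJB9, XBP1, DNAJC3 and SYVN1 rose with CBD, the last a call lost under 8 of 22 alternatives. They were not called in vehicle, and none of their differences passed the threshold (adjusted p from 0.013 to 0.51). With the CBD samples alone 5 heat shock and 5 unfolded protein response genes were called.

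Some clock genes rose in both treatments. Of 16, 7 rose with CBD (median 0.13), and 3 rose and 1 fell in vehicle (median 0.03). No difference was called by limma (7 of 16 at an unadjusted p under 0.05, against 2546 of 12621 over all genes). Of the 16 differences, 14 were above 0, and their median was 0.10 against -0.01 over all genes. NR1D1 (REV-ERBα), a repressor that also binds heme, was at 7.77, 6.69, 6.5 and 6.14 and then 9.34, 9.14, 9.19 and 8.58 FPKM (0.38, adjusted p = 5.1e-06). CIART rose by 0.36 with CBD and 0.35 in vehicle, and BHLHE41 by 0.27 and 0.24. PER1 rose by 0.29, HLF by 0.19, NR1D2 by 0.17 and TEF by 0.14. HLF, BHLHE41 and CIART were the 3 called with the CBD samples alone.

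Hypoxia markers rose in more members in vehicle than in CBD. In vehicle 13 of 19 rose and 1 fell, with a median of 0.25. With CBD 3 rose and 3 fell, with a median of 0.02. All 19 differences between the changes were below 0, and 3 were called, those of STC1, BNIP3 and KDM3A. The difference was lost under 17 of 30 alternatives for BNIP3 and 14 of 30 for KDM3A, and under none for STC1. BNIP3, a mitophagy receptor, was at 34.7, 37.2, 39 and 40.00 FPKM at 3 h and 35.2, 36.1, 35.4 and 39 at 6 h with CBD, with the groups overlapping. In vehicle it went from 38, 39.1, 36.1 and 40.4 to 43.8, 48.6, 53.8 and 49.7 (0.34, adjusted p = 0.00036). KDM3A, a histone demethylase, showed -0.11, adjusted p = 0.15 with CBD and 0.25, adjusted p = 0.0026 in vehicle.

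VEGFA, SLC16A3, NDRG1 and PDK1 were called in vehicle (0.53, 0.84, 0.34 and 0.29) and not with CBD (0.16, 0.16, 0.02 and 0.03), but none of these differences passed the threshold (adjusted p from 0.023 to 0.092). P4HA1, P4HA2 and ANKRD37 rose in both, the last with a CBD call lost under 12 of 21 alternatives. EGLN3, an oxygen-sensing hydroxylase, fell in both (-0.33 and -0.24), and the glucose transporter SLC2A1 fell with CBD (-0.25, adjusted p = 0.0016). EGLN3 and STC1 were the 2 called with the CBD samples alone. Of 18 glycolysis genes, ALDOC rose (0.27, adjusted p = 6.4e-05) and LDHA fell (-0.15, adjusted p = 0.00019) with CBD, against 7 that rose in vehicle. PKM and HK1 had changes below those in vehicle (-0.14 and -0.12), calls lost under 7 of 30 and 16 of 30 alternatives. ALDOC was the glycolysis gene called with the CBD samples alone. Of the 4 arrestins that answer glucose, ARRDC2 rose with CBD (0.18), a call lost with the CBD samples alone (adjusted p = 0.019), and TXNIP was at 19.8 and 19.7 FPKM.

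**Figure D4:**
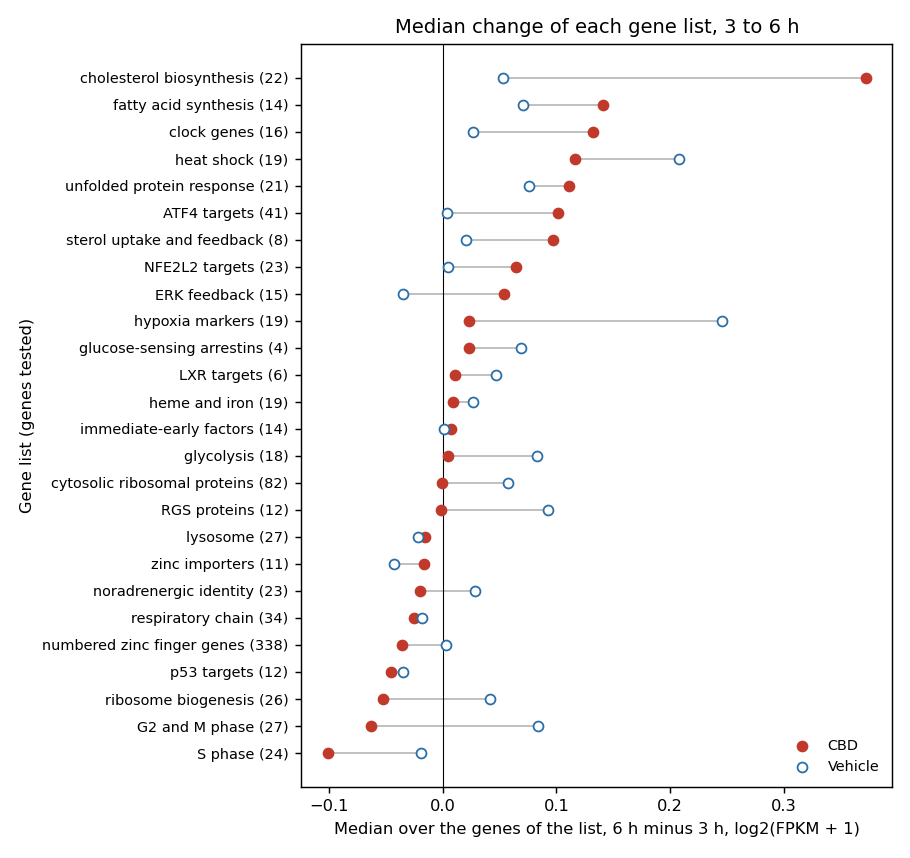
Median change from 3 to 6 h over the tested genes of each list, as a difference of log2(FPKM + 1), in CBD (filled red) and vehicle (open blue), with the number of genes in brackets and a grey line joining both medians. The metal response list (8 genes, CBD median 1.86) is left out for scale, cholesterol biosynthesis has the highest CBD median at 0.37 and S phase the lowest at -0.10, and the hypoxia median is 0.02 in CBD and 0.25 in vehicle.

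RGS4, STMN4, STC1 and JUN fell with CBD while they rose in vehicle, and their differences were among the most negative ones called. RGS4 (chr1:163038565-163046592), which turns off G protein signals, was at 43.5, 44.2, 46.1 and 45.2 FPKM at 3 h and 34.3, 34.3, 33.8 and 33.6 at 6 h with CBD. In vehicle it was at 54.3, 59.6, 58.7 and 62.8 and then 67.8, 87.2, 101 and 85.1. It fell by 0.39 with CBD (adjusted p = 0.0011) and rose by 0.52 in vehicle (adjusted p = 9.4e-05). The difference of -0.90 ± 0.11 was the most negative of the called differences named. STMN4, a neuronal protein that binds tubulin, went from 27.1, 28.9, 28 and 27.9 to 19.5, 20.9, 18.6 and 20.2 FPKM with CBD and from 27.2 ± 1.07 to 31.5 ± 1.11 in vehicle (difference -0.68, adjusted p = 1.3e-09). At 3 h its CBD and vehicle values overlapped, and at 6 h they did not. STC1, a secreted glycoprotein, fell from 4.85 ± 0.217 to 3.51 ± 0.0871 with CBD and rose from 5.01 ± 0.117 to 6.13 ± 0.636 in vehicle (difference -0.62, adjusted p = 2.8e-05).

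JUN (chr1:59242517-59249720), a subunit of AP-1, was at 18.5, 20.6, 20.2 and 19.7 FPKM at 3 h and 13.5, 17.3, 14.5 and 14.6 at 6 h with CBD, against 21.3 to 23.3 and 26 to 28.1 in vehicle. Its difference was -0.64 ± 0.08 (SE; adjusted p = 6.1e-06), although the fall with CBD was not called in the CBD samples alone (adjusted p = 0.023). The other immediate-early genes called were JUND (-0.32), EGR1 (-0.44) and FOSL2 (-0.18), which fell, and KLF10 (0.12, lost under 14 of 22 alternatives), which rose, out of 14 tested. EGR1 averaged 5.83 and 4.02 FPKM with CBD and fell in vehicle too (-0.34), from lower levels. Besides JUN, FOSL2 differed from vehicle (-0.29, lost under 7 of 30 alternatives). In a fit of the CBD samples alone, limma called none of the 14 (7 at an unadjusted p under 0.05), against 184 of 12519 over all genes (3026 at that p). Of 15 genes of feedback on ERK and related kinases, 4 rose and 5 fell. Those that rose were DUSP6 (0.22), the phosphatase specific for ERK, ETV5 (0.23), PHLDA1 (0.22) and SPRY2 (0.13, lost under 10 of 21 alternatives). Those that fell were DUSP8 (-0.38) and DUSP10 (-0.24), phosphatases of the stress kinases p38 and JNK, with DUSP5 (-0.18), SPRED2 (-0.11) and DUSP4 (-0.11). Changes differed from vehicle for DUSP6 (0.30) and ETV5 (0.40) above, and for DUSP10 (-0.46) and DUSP8 (-0.39) below. DUSP6 was the 1 called in the CBD samples alone.

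SH2D3C, an adaptor that binds CAS proteins, had the largest fall named after RPL21, from 6.83, 6.15, 6.13 and 5.17 to 3.8, 3.85, 3.55 and 3.6 FPKM (-0.58, adjusted p = 9.9e-09), and its vehicle change was 0.14 ± 0.05 (SE; adjusted p = 0.074). CREB5, a factor of the ATF2 family, fell from 5.42 ± 0.258 to 3.58 ± 0.244 (-0.49, adjusted p = 1.2e-07), SYT11, a synaptotagmin, from 63 ± 1.94 to 47.9 ± 1.36 (-0.39, adjusted p = 8.5e-13), and MGEA5, the enzyme that removes O-GlcNAc from proteins, from 20.3 ± 0.840 to 14.6 ± 0.309 (-0.45, adjusted p = 1.7e-11). These 3 falls exceeded those in vehicle, with differences of -0.33, -0.31 and -0.26, and that of CREB5 was lost under 14 of 30 alternatives. ID1 and ID2, inhibitors of helix-loop-helix factors and targets of BMP signals, fell in both treatments. ID2 went from 65.5, 75.2, 72 and 76.2 to 50.2, 49.9, 48.2 and 49.1 FPKM with CBD (-0.54) and changed by -0.48 in vehicle, and ID1 changed by -0.47 and -0.51. TNNT2 stayed uncalled with CBD (-0.05, adjusted p = 0.68) and rose in vehicle (0.39), and its difference of -0.44 (adjusted p = 0.0081) was lost under 16 of 29 alternatives.

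The largest fall among the genes named, that of the ribosomal protein gene RPL21, is uncertain. RPL21 was at 112, 206, 155 and 159.5 FPKM at 3 h and 63.4, 92.6, 63.4 and 99.7 at 6 h (-0.98, adjusted p = 0.0065), the call was lost under 8 of 22 alternatives, and the difference from vehicle was not called (-1.22, adjusted p = 0.04). Of the 50-base words in its transcripts 25.6% occur in at least 1 of 84 other genes, processed pseudogenes among them. Other cytosolic ribosomal proteins did not follow, with 1 of 82 called higher, 2 called lower including RPL21, and a median of 0.00.

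Of the 22 genes called in both treatments in opposite directions, 14 fell with CBD and rose in vehicle and 8 did the reverse. Within the gene lists and the rule for named genes these were STMN4, RGS4, JUN, STC1 and DUSP10 in the first set, and INSIG1, MSMO1, SC5D, GCLM, SLC3A2 and ETV5 in the second. Of the 8 in the second set, the 6 named are 3 sterol genes, 1 gene each of glutathione synthesis and amino acid transport, and 1 ETS factor. This makeup follows in part from the lists, which cover these programs.

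**Figure D5:**
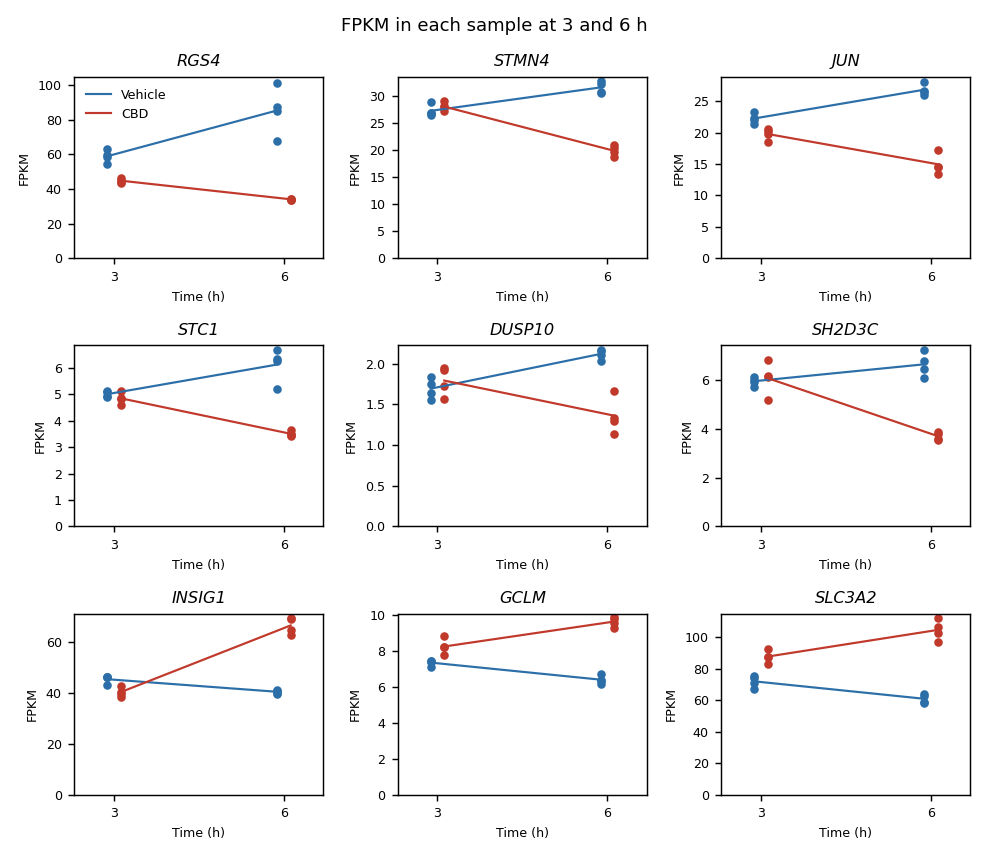
FPKM of 9 genes at 3 and 6 h, with 1 point per sample and lines joining group means, red for CBD and blue for vehicle, on axes that start at 0. In the upper 6 panels (RGS4, STMN4, JUN, STC1, DUSP10 and SH2D3C) the red line falls and the blue line rises, and in the lower 3 (INSIG1, GCLM and SLC3A2) the red line rises and the blue line falls, while the blue change of SH2D3C did not pass the test.

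Some growth genes fell by small amounts. Of 24 S phase genes 8 fell and none rose with CBD, 1 of the 24 changes was above 0, and the median was -0.10. In vehicle 4 fell, with a median of -0.02. CDC25A, the phosphatase that starts S phase, fell from 12.7 ± 0.418 to 10.8 ± 0.268 FPKM (-0.21, adjusted p = 1.7e-05) and changed by -0.18 in vehicle. CDC6 (-0.21), RRM2 (-0.18), MCM4 (-0.17), PCNA (-0.15), GINS2 (-0.13), MCM3 (-0.11) and MCM6 (-0.10, lost under 11 of 22 alternatives) also fell. MCM4 and MCM3, parts of the replicative helicase, were the ones whose change lay below that in vehicle, but these calls were lost under 21 of 30 and 17 of 30 alternatives. With the CBD samples alone CDC6, RRM2 and CDC25A were called.

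Of 27 genes of G2 and M phase, AURKA (-0.16), KIF20A (-0.14) and CCNB2 (-0.12) fell with CBD, whereas 2 rose in vehicle. Medians were -0.06 and 0.08, and the changes of AURKA, KIF20A, KIF2C and TPX2 differed (-0.14, -0.26, -0.17 and -0.26). Fitted to the CBD samples alone, limma called none of the 27 (5 at an unadjusted p under 0.05), against 184 of 12519 over all genes (3026 at that p). The falls of CCNB2 and KIF20A were lost under 7 of 22 and 5 of 22 alternatives. The differences of TPX2, KIF2C and AURKA were lost under 10 of 30, 9 of 30 and 6 of 30. In ribosome biogenesis 1 of 26 genes fell, UBTF, which recruits RNA polymerase I (-0.19, adjusted p = 5.3e-08) and was also called with the CBD samples alone. It differed from vehicle, as did NOP14 and PES1, which were not called within CBD (-0.13, adjusted p = 0.017 and -0.09, adjusted p = 0.013), though the difference of PES1 was lost under 16 of 30 alternatives. None of 34 nuclear genes of the respiratory chain was called with CBD by limma (5 at an unadjusted p under 0.05, log2 range -0.11 to 0.05). Over all 12621 genes, 1385 were called and 4134 had an unadjusted p under 0.05. Of 12 p53 targets TP53INP1, RRM2B and MDM2 fell (-0.21, -0.16 and -0.12) and no difference of theirs from vehicle was called. In the CBD samples alone limma called none of the 12 p53 targets (5 at an unadjusted p under 0.05), against 184 of 12519 over all genes (3026 at that p). RRM2B and MDM2 were each lost under 8 of 22 alternatives.

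MYCN (chr2:16080672-16087129), amplified in this line and far more abundant than most transcripts, was at 1729, 1632, 1591 and 1523 FPKM at 3 h and 1960, 1814, 1930 and 1832 at 6 h with CBD (0.22, adjusted p = 7.2e-05). In vehicle it was at 1525 ± 22.2 and 1472 ± 36.1, and the changes differed (0.27, adjusted p = 0.0015). The call within CBD was lost in the CBD samples alone (adjusted p = 0.035). Of 23 genes of noradrenergic identity, TFAP2B (0.09) and KLF7 (0.09) rose as well, and LMO1 (-0.29), SCG3 (-0.25, lost under 8 of 22 alternatives) and GATA2 (-0.19) were among the 4 that fell. LMO1, a cofactor linked to neuroblastoma risk, went from 20.2, 19.3, 19.4 and 19.8 to 15.2, 16.8, 16.4 and 15.5 FPKM and was the 1 called in the CBD samples alone. CHGB, a granin of secretory granules, was not called with CBD (-0.13, adjusted p = 0.11) and rose in vehicle (0.25), with a difference of -0.38 ± 0.08 (SE; adjusted p = 0.0043) that was lost under 10 of 30 alternatives. RGS12 was the other RGS gene that fell (-0.14, lost under 11 of 22 alternatives), and RGS16 was not called with CBD (-0.06) and rose in vehicle (0.23).

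Numbered zinc finger (ZNF) genes, most of them KRAB repressors, had 31 of 338 members lower and 7 higher at 6 h with CBD, and a median of -0.04. These counts depended on the processing. Quantile normalization gave 49 lower and 3 higher, and the CBD samples alone gave 1 lower. Leaving out CBD 3 h replicate 1 gave 40 lower and 6 higher. In vehicle 4 were lower and 6 higher. Among 27 lysosome genes 2 were higher and 1 lower, where 11.0% of all genes tested were called in either direction. Among 6 LXR targets 1 was higher. With the CBD samples alone limma called none of either (9 and 1 at an unadjusted p under 0.05), against 184 of 12519 over all genes (3026 at that p). The 13 mitochondrial transcripts listed were not analysed here.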

How the data were processed

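RNA of 32 SK-N-BE(2) samples was sequenced by the authors, who pooled all libraries over the same lanes. The deposited FPKM were computed by the authors with Cufflinks from single reads that were trimmed with Trimmomatic version 0.36 and aligned to hg19 with TopHat, with up to 2 locations allowed per read. The gene annotation is not given in the sources used here, and the library kit is named differently in the labels and in the methods. A second deposited table, with the authors' own log2 fold changes and q-values for CBD against vehicle, was not used. FPKM are not counts and hold no depth, so no counting interval is given. Relative depth was estimated from 1414 genes detected in 2 to 8 samples.

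Genes with a mean of at least 1 FPKM over the 32 samples were kept, 1 was added, and log2 values were fitted with 8 group means in limma version 3.58.1 (under R version 4.3.3), with eBayes and a trend on intensity. This log2 scale understates the change of scarce genes. P-values were adjusted by Benjamini-Hochberg over all 12621 genes in each comparison, with a threshold of 0.01. The scripts were tested on simulated data. Permutation tests were exact (scipy version 1.17.1, Python version 3.11.15).

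The genes named are the 12 largest rises and 12 largest falls with CBD among genes past the threshold with no overlap between groups and at least 1 FPKM in the higher one, the 8 most positive and 8 most negative called differences from vehicle, both without short RNA entries, and members of 26 lists written from general knowledge, with 2 further lists given by name pattern. Some list members count in the totals but are not reported here by name. The samples, lists and rules were chosen with earlier results of these data known. Counts of list members and medians are descriptions, set against those over all genes tested. Over all genes tested, samples sharing a replicate number deviated together little (correlations of -0.0213 to 0.125 between CBD at 6 h and 3 h), so no block was used. Positions of genes on GRCh37 were read from GENCODE version 44, and promoter windows from RefSeq on GRCh38.p14, matched by symbol. Alternatives were another value added, other filters, scalings, samples and eBayes settings, relative depth as a term, a replicate block, a threshold of 0.05 and each replicate left out.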

Additional observations from a re-analysis of the deposited data

Results flagged for a closer look

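In the 48 groups of 4 checked for a sample far from the rest, 2 samples stood out, about as many as chance gives at 1 in 20. They were CBD 6 h replicate 2 for MT1E, at 157 FPKM, and CBD 3 h replicate 1 for CREB5, at 5.03 FPKM, below its 3 group mates. The other results listed here had a change from 3 to 6 h with CBD that differed from the change in vehicle by a test of the difference itself. On the log2(FPKM + 1) scale these differences were 2.23 for MT1G and MT1H, 2.14 for MT1E, 1.89 for MT1M, 1.82 for MT1F, 1.78 for MT1X, 1.68 for MT2A and 1.01 for HMOX1. Below 0 they were -0.90 for RGS4, -0.72 for SH2D3C, -0.68 for STMN4, -0.64 for JUN, -0.62 for STC1, -0.60 for SLC39A10, -0.46 for DUSP10 and -0.44 for TNNT2.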

How the results depend on the processing

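The count of genes changed between 3 and 6 h with CBD moved most with the samples that set the spread. It was 184 in the 8 CBD samples alone and 815 in the 16 samples of both early times, against 1385, and 2557 at a threshold of 0.05. The matching counts in vehicle were 382, 688 and 2351, and those of differences from vehicle were 110 in the 16 samples and 737 at 0.05. Leaving out each replicate gave 960 to 1952 with CBD, 740 to 980 in vehicle and 151 to 602 for the difference, the last also 415 without CBD 6 h replicate 4, 156 without CBD 6 h replicate 3 and 174 without vehicle 3 h replicate 2. The lowest came without CBD 3 h replicate 2 and the highest without CBD 3 h replicate 1. In vehicle the lowest came without vehicle 3 h replicate 2. The other alternatives kept each count within 1.5 times, from 1012 (mean of at least 5 FPKM) to 1651 with CBD. The cause of these shifts was not tested. A replicate block gave 1651 genes with CBD, 1398 in vehicle and 306 for the difference. Over all genes tested, of 4 CBD samples at 6 h, 3 correlated best with another number at 3 h. Correlations over all genes cannot exclude that some genes varied with the replicate number. Replicate 2 was the highest CBD sample at both times for every metallothionein tested but MT1H.

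Over the genes named, no called change reversed sign under the alternatives run. Each gene was counted once per alternative in each of the comparisons, CBD change and difference from vehicle. Counted so, a call was lost 570 times and gained 63 times, beside 9471 results that stayed the same, list medians included. Most losses came with fewer samples. FPKM without counts limit what can be said of scarce genes such as MT1H and MT1M, whose change on this scale depends on the value added.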
